A study of Mus musculus with 4 samples.

Results

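The proteasome subunit family was examined in hair follicle stem cells, the cells that rebuild the hair follicle. They were sorted from the skin of neonatal mice labelled as lacking (KO) or having (WT) the microRNA miR-205. Members of the family were the genes whose single platform symbol begins with Psma, Psmb, Psmc, Psmd or Psme followed by a digit. 44 of the 18193 genes on the array met this rule, through 91 probe sets. 42 of them encode parts, chaperones or activators of the proteasome. The other 2, Psmc3ip, a meiotic recombination factor, and Psme3ip1, a protein that binds the activator PA28 gamma, share only the start of the name. The single probe set for Psme2, the second chain of the activator PA28, also carries the symbol Psme2b, so that gene was not a member.

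The groups were 2 arrays of miR-205 KO cells and 2 arrays of WT cells, all from skin at postnatal day 4 on a C57BL/6 background, numbered 1 and 2 in each group. Affymetrix mouse arrays were hybridised with 1 sample each. The labels call the replicates biological and do not say whether they were separate animals or pools, so p-values measure only the spread between these arrays. How much of the locus was removed, and in which cells, is not given in the labels, and the treatment text attached to the samples describes a doxycycline-induced miR-203 line instead. The microRNA itself was not measured, so its loss is known from the labels alone. Its host transcript Mir205hg was higher on both KO arrays, at log2 values of 6.52 and 6.13 in KO and 5.81 and 5.30 in WT. That difference did not pass the test used below. The mature microRNA is shown to identify what the KO label names, with the seed (bases 2 to 8) in capitals. It is from RefSeq, GRCm38.p6, chr1:193507503-193507524, minus strand.
mmu-miR-205-5p: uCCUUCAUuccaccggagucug

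The proteasome is the cell's main machine for degrading proteins tagged with ubiquitin. Its 20S core is a barrel in which rings of alpha subunits gate the entry and rings of beta subunits carry the protease sites. The 19S cap recognises ubiquitin through its lid and base, removes the ubiquitin chain, and unfolds the substrate with a ring of ATPases. Interferon can replace the 3 catalytic beta subunits by immunoproteasome counterparts, and other activators such as PA28 and PA200 can cap the barrel in place of 19S. Most subunits are made in all cells in fixed proportions.

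Values are log2 expression values made by RMA, and a difference is KO minus WT on that scale. All 11 follicle and basal keratinocyte markers had a mean over the 4 arrays above the median gene. Krt14, a keratin of basal cells, was at 13.65 and 13.73 in KO and 13.54 and 13.57 in WT cells. Cd34 passed only through WT 1, at 8.32. On the other arrays it lay below the median gene, at 6.87 and 6.69 in KO and 6.20 in WT 2. Of 11 immune markers, Ptprc lay at 3.51 to 3.55 on all arrays, near the low end of the list. The median of their mean levels was 5.19. Laptm5 was the 1 immune marker with a mean above the median gene, at 6.72 and 7.22 in KO and 6.72 and 7.08 in WT. The summed linear level of 10 dermal fibroblast markers was 29016 in KO 1 and 15115 in KO 2. It was 48100 in WT 1 and 12014 in WT 2. Both arrays numbered 1 were thus above both numbered 2, and WT 1 was the highest. The summed linear level of 7 differentiation markers was 11984 and 11822 in KO, against 8190 and 6512 in WT. 4 of the 7 (Krt1, Krt10, Krtdap and Calm4) had both KO arrays above both WT arrays, against 8.20% of all genes. Lor, Ivl and Flg overlapped between the groups, and Ivl had a lower mean in KO cells. The 2 genes of the whole array that passed the test were the X-inactivation RNA Xist, at 5.26 and 5.45 in KO and 13.28 and 13.19 in WT, and the Y-linked Eif2s3y, at 9.59 and 9.57 in KO and 3.05 and 2.86 in WT. The KO arrays thus showed a male and the WT arrays a female pattern of these 2 genes. Sex and genotype cannot be told apart here, so each KO minus WT difference may reflect either. The part of the marker differences in the results below was not tested. In sorted bulk samples, fewer cells of a type and less RNA per cell cannot be told apart.

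No proteasome gene was called different between KO and WT cells. 0 of the 44 members passed an adjusted p of 0.05 with limma, where 2 of all 18193 genes did (0.0110%). 1 member, Psmb8, had an unadjusted p under 0.05, against 1.88% of all genes. The median difference of the members was 0.012, beside 0.0082 over all genes. 25 members had a higher and 19 a lower mean in KO cells. The median absolute difference was 0.034 for the members, 0.068 for all genes and 0.060 for the genes above the upper quartile of levels. 4 members had both KO arrays above both WT arrays (8.20% of all genes) and 0 had both below (5.70% of all genes).

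**Figure D1:**
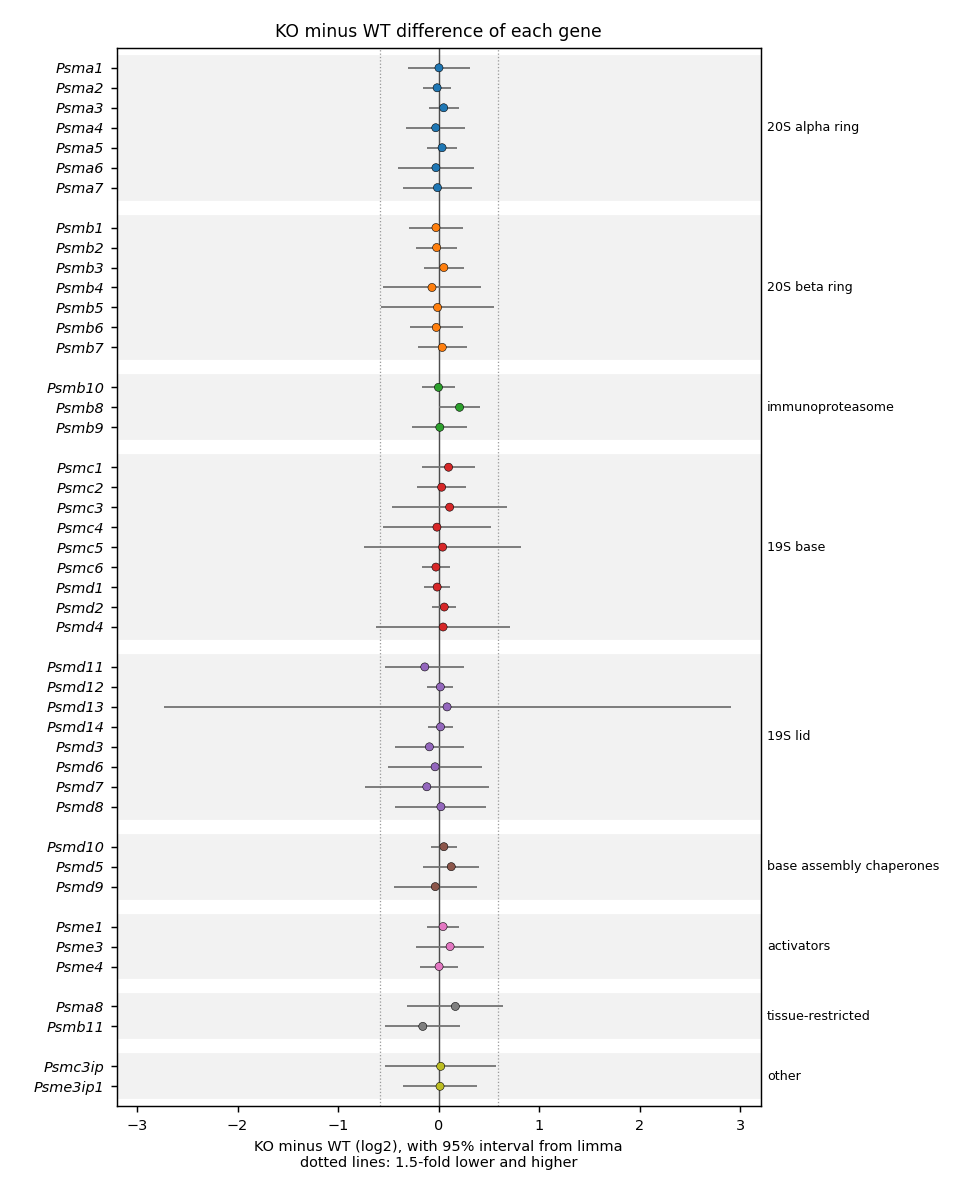
KO minus WT difference of each of the 44 genes (log2, horizontal axis), grouped by role, with its 95% interval from limma (n = 2 arrays per group). Intervals of 38 genes stay within 1.5-fold either way (dotted lines), and that of Psmd13 runs from -2.74 to 2.90.

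The precision differed between members. For 38 of the 44 the 95% interval of the difference lay inside 1.5-fold in either direction. The interval reached past 1.5-fold for Psmc3, Psmc5, Psmd4, Psmd7, Psmd13 and Psma8. With 2 arrays per group, a change of that size in these genes was not excluded. An adjusted p of 1, which limma gave to every member, does not show that the groups were equal. 12 members (27.3%) had equal values on at least 2 arrays, as did 43.0% of all genes. In Psma5, Psmc6, Psmd2, Psmd7 and Psme1 arrays of the same group were tied, which lowers the apparent spread. In the others only a KO and a WT array were tied.

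The 26S subunits were bright and the immunoproteasome subunits were not. Brightness depends on the probes as well as on the RNA, so the levels describe the probe sets and give no order of RNA amounts between genes. 39 of the 44 members lay above the median gene, at 6.88, and 37 lay above the upper quartile of genes, at 8.77. All 31 subunits of the 20S core, the base and the lid lay above that quartile. The 3 immunoproteasome subunits and the 2 tissue-restricted ones, Psma8 of the testis and Psmb11 of the thymus, were the 5 members below the median gene.

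**Figure D2:**
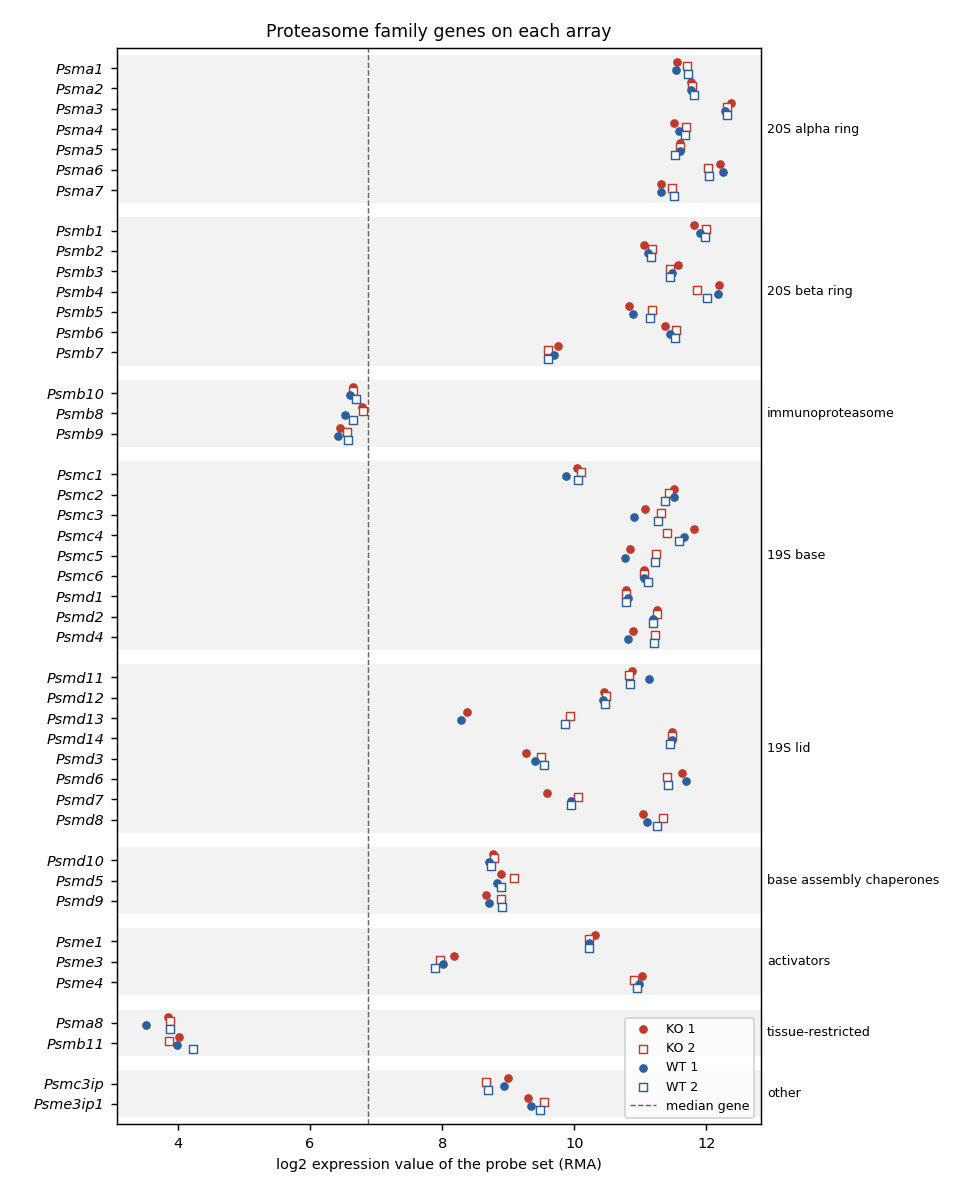
Log2 expression value (horizontal axis) of each of the 44 genes on the arrays KO 1, KO 2, WT 1 and WT 2, by role, with the median gene, at 6.88, as a dashed line. The immunoproteasome genes lie at 6.42 to 6.80, and Psmd13 separates the arrays numbered 1 (filled) from those numbered 2 (open) in both groups.

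The alpha ring, which forms the gate of the 20S barrel, held 7 genes with mean levels between 11.40 and 12.32. 3 had a higher and 4 a lower mean in KO cells, with a median difference of -0.013 and a range from -0.030 to 0.049. All 7 overlapped between the groups. Psma3, a gate subunit, had the largest difference. It was at 12.38 and 12.32 in KO and at 12.28 and 12.32 in WT cells, a difference of 0.049 with an SE of 0.047 (limma adjusted p = 1). KO 2 and WT 2 had the same value, so the difference came from the number 1 arrays. Psma5 was at 11.59 and 11.59 in KO and at 11.59 and 11.53 in WT (difference 0.033, SE 0.046). Psma2 was at 11.76 and 11.78 in KO and at 11.76 and 11.81 in WT (difference -0.016, SE 0.043). None of these passed the test.

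The constitutive beta ring held 7 genes at mean levels between 9.66 and 12.06. 2 had a higher and 5 a lower mean in KO cells (median -0.021, range -0.067 to 0.051), and all overlapped between the groups. Psmb5, Psmb6 and Psmb7 carry the chymotrypsin-like, caspase-like and trypsin-like activities. Psmb5 was at 10.83 and 11.18 in KO and at 10.88 and 11.14 in WT cells, a difference of -0.012 with an SE of 0.18. Its arrays numbered 2 were the higher ones in both groups. Psmb6 was at 11.38 and 11.55 in KO and at 11.45 and 11.53 in WT (difference -0.024, SE 0.084). Psmb7 was at 9.75 and 9.61 in KO and at 9.69 and 9.61 in WT (difference 0.035, SE 0.078). Of the structural subunits, Psmb4 differed most, at 12.20 and 11.86 in KO and 12.18 and 12.01 in WT (difference -0.067, SE 0.16). Psmb3 was at 11.57 and 11.45 in KO and at 11.47 and 11.45 in WT (difference 0.051, SE 0.064). Limma gave an adjusted p of 1 to each.

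The immunoproteasome subunits Psmb8, Psmb9 and Psmb10 take the places of Psmb5, Psmb6 and Psmb7. Psmb8, the counterpart of Psmb5, had the smallest p of the family. Its probe set was at 6.79 and 6.80 in KO cells and at 6.52 and 6.65 in WT cells, and the groups did not overlap. KO exceeded WT by 0.21 (SE 0.065), with a 95% interval from 0.0035 to 0.41 (limma unadjusted p = 0.048, adjusted p = 1). KO 1 exceeded WT 1 by 0.27, and KO 2 exceeded WT 2 by 0.14. Its second probe set is dim, at 3.30 on all arrays.

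Psmb9 was at 6.45 and 6.56 in KO and at 6.42 and 6.58 in WT (difference 0.011, SE 0.087). Psmb10 was at 6.64 and 6.64 in KO and at 6.60 and 6.69 in WT (difference -0.0029, SE 0.053, 95% interval -0.17 to 0.16). Both genes overlapped between the groups. The summed linear level of 6 interferon-responsive genes was 1860 and 1796 in KO and 1671 and 1997 in WT. Most of this sum was Irf1, at 10.56 and 10.57 in KO and 10.43 and 10.72 in WT. None of the 6 had both KO arrays above both WT arrays. Ifit3 had both below, at 4.68 and 4.82 in KO and 4.89 and 5.01 in WT. The summed linear level of 11 immune cell markers was 495 and 552 in KO and 462 and 539 in WT. The part of these genes in the Psmb8 value was not tested.

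Promoters are shown for Psmb8 and Psmb9 and for their constitutive counterparts Psmb5 and Psmb6, because these pairs occupy the same places in the barrel and differ in brightness here. Each run is the 250 bases before the RefSeq start (GRCm38.p6), in the direction of the gene. The intervals are chr17:34197945-34198194 on the plus strand for Psmb8, chr17:34187331-34187580 on the minus strand for Psmb9, chr14:54617996-54618245 on the minus strand for Psmb5 and chr11:70525107-70525356 on the plus strand for Psmb6. Capitals mark letters that match, on either strand, the antioxidant response element TGACNNNGC (bound by NFE2L1 and NFE2L2), the CCAAT box CCAAT, the GC box GGGCGG, the IRF core AANNGAAA or the STAT site TTCNNNGAA. No 2 of these matches overlap in the runs shown.
Psmb8: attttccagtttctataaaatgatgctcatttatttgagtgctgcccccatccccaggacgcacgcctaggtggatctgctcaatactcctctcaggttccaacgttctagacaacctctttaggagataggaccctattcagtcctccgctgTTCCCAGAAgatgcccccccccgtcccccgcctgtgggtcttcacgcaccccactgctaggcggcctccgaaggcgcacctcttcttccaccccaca
Psmb5: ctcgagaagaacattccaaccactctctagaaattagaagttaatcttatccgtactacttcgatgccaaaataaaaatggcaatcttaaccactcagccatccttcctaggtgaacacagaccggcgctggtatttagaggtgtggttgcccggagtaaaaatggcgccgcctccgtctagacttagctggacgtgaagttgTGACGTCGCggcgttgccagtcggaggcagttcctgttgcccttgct
Psmb9: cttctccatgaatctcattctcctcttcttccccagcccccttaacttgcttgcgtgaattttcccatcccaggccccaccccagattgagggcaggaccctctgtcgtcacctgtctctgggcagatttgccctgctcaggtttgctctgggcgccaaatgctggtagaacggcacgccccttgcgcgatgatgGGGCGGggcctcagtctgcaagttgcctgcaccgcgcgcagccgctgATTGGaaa
Psmb6: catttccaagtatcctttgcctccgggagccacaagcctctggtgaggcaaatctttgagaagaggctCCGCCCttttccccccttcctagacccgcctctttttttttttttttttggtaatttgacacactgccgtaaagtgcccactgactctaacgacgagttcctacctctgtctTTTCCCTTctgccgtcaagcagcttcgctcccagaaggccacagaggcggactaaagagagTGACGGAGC

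Psmb5 and Psmb6 each held the antioxidant response element, as TGACGTCGC at 47 to 39 bases and as TGACGGAGC at 9 to 1 bases before the start. Psmb8 held the STAT site, as TTCCCAGAA at 97 to 89 bases before the start. Psmb9 held the CCAAT box, as ATTGG on the other strand, and the GC box. Psmb6 also held the GC box and the IRF core, both on the other strand. 37 of the 44 members had a promoter in the RefSeq table. The antioxidant response element was in 5 of the 37 (Psmb5, Psmb6, Psmc6, Psmd12 and Psmd9), or 13.5%, against 10.1% of 27025 genes. The GC box was in 54.1% against 32.9%, the CCAAT box in 40.5% against 34.5%, the IRF core in 21.6% against 21.6% and the STAT site in 2.70% against 7.18%. 5 of the 7 alpha ring genes held the CCAAT box. A match is a description of the letters and not a bound site.

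The 19S base unfolds the substrate. Its 9 genes, the ATPases Psmc1 to Psmc6, the scaffolds Psmd1 and Psmd2 and the ubiquitin receptor Psmd4, had mean levels between 10.02 and 11.61. 6 had a higher and 3 a lower mean in KO cells (median 0.039, range -0.028 to 0.11). Psmd2 was at 11.26 and 11.25 in KO and at 11.20 on both WT arrays, the only base gene whose groups did not overlap. Its difference was 0.055 with an SE of 0.038 (limma unadjusted p = 0.24, adjusted p = 1). Psmc1 was at 10.04 and 10.10 in KO and at 9.88 and 10.06 in WT, a difference of 0.098 with an SE of 0.085. Psmc3 was at 11.07 and 11.32 in KO and at 10.90 and 11.26 in WT. Its difference of 0.11, the largest of the base, had an SE of 0.18. Psmc6 was at 11.06 on both KO arrays and at 11.06 and 11.12 on the WT arrays, a difference of -0.028 with an SE of 0.044. In Psmc3 the number 2 array was the higher one in each group by more than the groups differed.

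The 19S lid holds the deubiquitinase Psmd14 and 7 scaffold subunits. 4 of the 8 genes had a higher and 4 a lower mean in KO cells (median -0.010, range -0.14 to 0.083). Psmd11, a lid scaffold, had the lowest difference. It was at 10.87 and 10.83 in KO and at 11.13 and 10.84 in WT cells, so the difference of -0.14 (SE 0.13, limma adjusted p = 1) came from WT 1. Psmd7, the partner of Psmd14, was at 9.59 and 10.06 in KO and at 9.94 on both WT arrays (difference -0.12, SE 0.20). KO 1 was the lowest array and KO 2 the highest. Psmd3 was at 9.27 and 9.49 in KO and at 9.41 and 9.54 in WT (difference -0.093, SE 0.11). Psmd14 was at 11.49 on both KO arrays and at 11.48 and 11.45 on the WT arrays. Its groups did not overlap, by a margin far below the SE of 0.040.

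The chaperones that assemble the base, Psmd5, Psmd9 and Psmd10, are not part of the finished particle. They had mean levels between 8.75 and 8.92 and a median difference of 0.051. Psmd5 was at 8.89 and 9.08 in KO and at 8.83 and 8.89 in WT, a difference of 0.12 with an SE of 0.089. Psmd10, also known as gankyrin, was at 8.76 and 8.78 in KO and at 8.70 and 8.74 in WT. Its groups did not overlap, and the difference was 0.051 with an SE of 0.041 (limma unadjusted p = 0.31, adjusted p = 1). Psmd9 was at 8.66 and 8.90 in KO and at 8.71 and 8.91 in WT (difference -0.034, SE 0.13).

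Of the activators, all 3 members had slightly higher means in KO cells and all overlapped between the groups. Psme1, a chain of the interferon-inducible activator PA28, was at 10.31 and 10.22 in KO and at 10.22 on both WT arrays (difference 0.043, SE 0.051). Psme3, the nuclear activator PA28 gamma, was at 8.18 and 7.96 in KO and at 8.02 and 7.89 in WT (difference 0.11, SE 0.11). Psme4, the activator PA200, was at 11.02 and 10.91 in KO and at 10.97 and 10.95 in WT (difference 0.0034, SE 0.060). The probe set shared by Psme2 and Psme2b was at 10.48 on both KO arrays and at 10.45 on both WT arrays (difference 0.029, SE 0.034, limma adjusted p = 0.996 in the fit of all probe sets).

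Of the members outside the somatic particle, none passed the test. Psma8 was at 3.85 and 3.88 in KO and at 3.52 and 3.88 in WT (difference 0.17, SE 0.15), and Psmb11 was at 4.01 and 3.87 in KO and at 3.98 and 4.22 in WT (difference -0.16, SE 0.12). Both probe sets are dim, and the table has no detection calls. Psmc3ip was at 9.00 and 8.66 in KO and at 8.93 and 8.69 in WT (difference 0.019, SE 0.18). Psme3ip1 was at 9.30 and 9.55 in KO and at 9.35 and 9.48 in WT (difference 0.013, SE 0.12).

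The family varied more between arrays of different number than between genotypes. For 36 of the 44 members (81.8%) the average difference between the arrays numbered 2 and 1 exceeded the KO minus WT difference in size. It did so for 65.7% of all genes, and for 3325 of the 4548 genes above the upper quartile of levels. In 37 of the 44 members the difference between the numbers had the same sign in KO and in WT cells. In 21 members both arrays numbered 2 lay above both numbered 1, where 21.7% of all genes did. In 12 members both lay below, where 22.0% of all genes did. The labels do not say what the number stands for beyond the replicate. The dermal fibroblast markers followed the number too, with a median difference of -1.57 and 8 of 10 at least 2-fold apart. Their part in the number differences of the family was not tested.

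**Figure D3:**
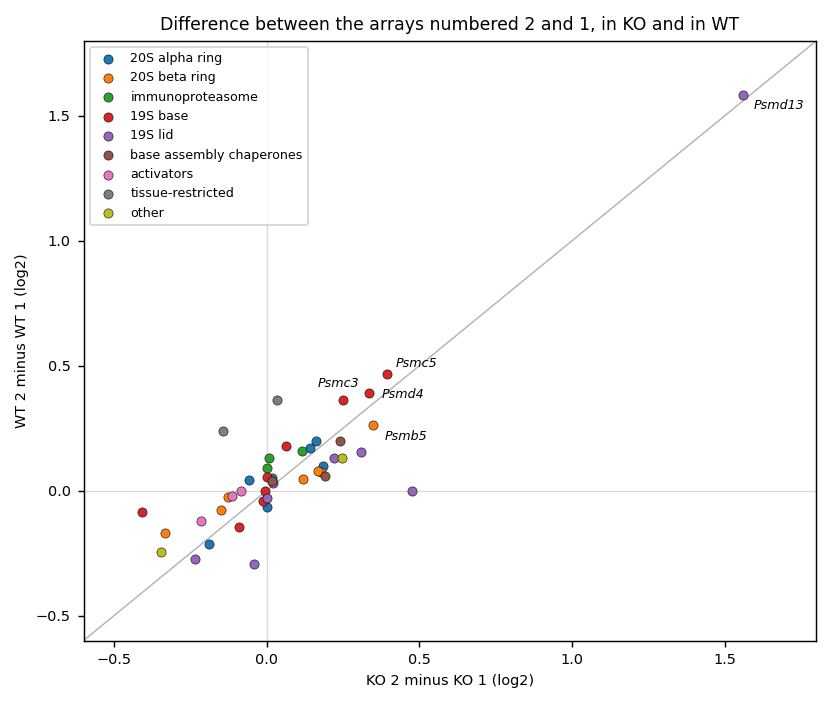
Difference between the arrays numbered 2 and 1 in KO (horizontal axis) and in WT cells (vertical axis), both log2, for the 44 genes, coloured by role, with the line of equal values. Psmd13 lies near that line at 1.56 in KO and 1.58 in WT, far from the other members.

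Psmd13, the lid subunit Rpn9, was the member that varied most. Its probe set was at 8.37 on KO 1 and 9.93 on KO 2, and at 8.28 on WT 1 and 9.86 on WT 2. Both arrays numbered 2 were thus about 1.6 log2 units above those numbered 1, and the genotypes overlapped. On average the numbers lay 1.57 apart, the fifth highest value toward number 2 of all 18193 genes. It was the 1 member at least 2-fold apart between the numbers, as 0.803% of all genes were. Between genotypes the difference was 0.095 for number 1 and 0.071 for number 2, with a mean of 0.083 and an SE of 0.90. A second probe set of Psmd13 separated the numbers as well, at 7.80 and 8.83 in KO and 7.96 and 8.86 in WT, and another by less, at 6.53 and 6.87 in KO and 6.60 and 7.07 in WT. The fourth, a dim one, was at 4.75 and 4.79 in KO and 4.85 and 4.79 in WT.

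The genes next to Psmd13 on its chromosome had other patterns over the arrays. Sirt3, a mitochondrial deacetylase gene that starts close by on the other strand, was at 7.57 on all 4 arrays. Cox8b, on the other side, was at 5.32 and 5.29 in KO and at 5.32 on both WT arrays. Ric8a, beyond Sirt3, went the other way, at 9.33 and 8.79 in KO and at 9.16 and 8.60 in WT. The 250 bases before the Psmd13 start are shown because this member separated the arrays by the most (RefSeq, GRCm38.p6, chr7:140882144-140882393, plus strand). None of the motifs searched was found in them, so they hold no capitals.
Psmd13: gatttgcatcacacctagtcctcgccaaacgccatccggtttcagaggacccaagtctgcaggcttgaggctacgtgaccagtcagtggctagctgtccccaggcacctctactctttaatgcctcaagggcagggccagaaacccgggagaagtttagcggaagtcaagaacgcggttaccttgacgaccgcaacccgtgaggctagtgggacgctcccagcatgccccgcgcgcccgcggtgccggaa

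Several other 19S and 20S genes followed the number on a smaller scale. The ATPase Psmc5 was at 10.84 and 11.23 in KO and at 10.76 and 11.23 in WT, 0.43 higher on number 2. The ubiquitin receptor Psmd4 was at 10.89 and 11.23 in KO and at 10.82 and 11.21 in WT, 0.36 higher on number 2. Psmc3 and Psmb5, described above, were each 0.31 higher on number 2. Others went the opposite way. Psmd6, a lid scaffold, was at 11.63 and 11.40 in KO and at 11.69 and 11.42 in WT, and its number difference was -0.25. For Psma6, an alpha subunit, it was -0.20. The second brightest probe sets of Psmd6 and Psma6 did not repeat this, with number differences of -0.0028 and 0.056. The class medians of the number difference were small, from -0.067 for the activators to 0.12 for the base assembly chaperones.

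Probe sets of one gene did not always order the arrays alike. 23 of the 44 members had more than 1 probe set. 22 further probe sets, of 16 genes, lay above the median gene. 11 of these had a KO minus WT difference of the other sign than the brightest probe set, the largest being -0.27, and 11 had a number difference of the other sign. Psmb4 was 0.25 lower on number 2 by its brightest probe set and 0.18 higher by its second, at 11.91 and 12.12 in KO and 11.92 and 12.07 in WT. Psmc4, an ATPase, was likewise 0.25 lower by the first and 0.24 higher by the second, at 10.55 and 10.81 in KO and 10.52 and 10.75 in WT. The number difference of Psmb3 and Psmc2 also turned sign between their 2 brightest probe sets. That of Psmd4 did not, with 0.36 by the first and 0.53 by the second. For Psma3 the second probe set, at 6.69 and 7.19 in KO and 6.86 and 7.56 in WT, differed by -0.27 between genotypes. Of all 91 probe sets of the family, 0 had an adjusted p under 0.05 with limma and 2 had an unadjusted p under 0.05, that of Psmb8 and a dim one of Psmc2 at 4.48 and 4.36 in KO and 4.69 and 4.77 in WT. Other genes, too, had further probe sets whose KO minus WT difference was of the other sign than that of the brightest. Among these it was 0.015 in Psmb4, -0.10 in Psmc1, 0.042 in Psmd6, 0.045 in Psmd7, 0.049 in Psmd9 and 0.0042 to 0.070 in 4 probe sets of Psmd11. It was -0.048 and -0.068 in 2 probe sets of Psmd4 and -0.065 to -0.31 in 3 of Psme4.

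**Figure D4:**
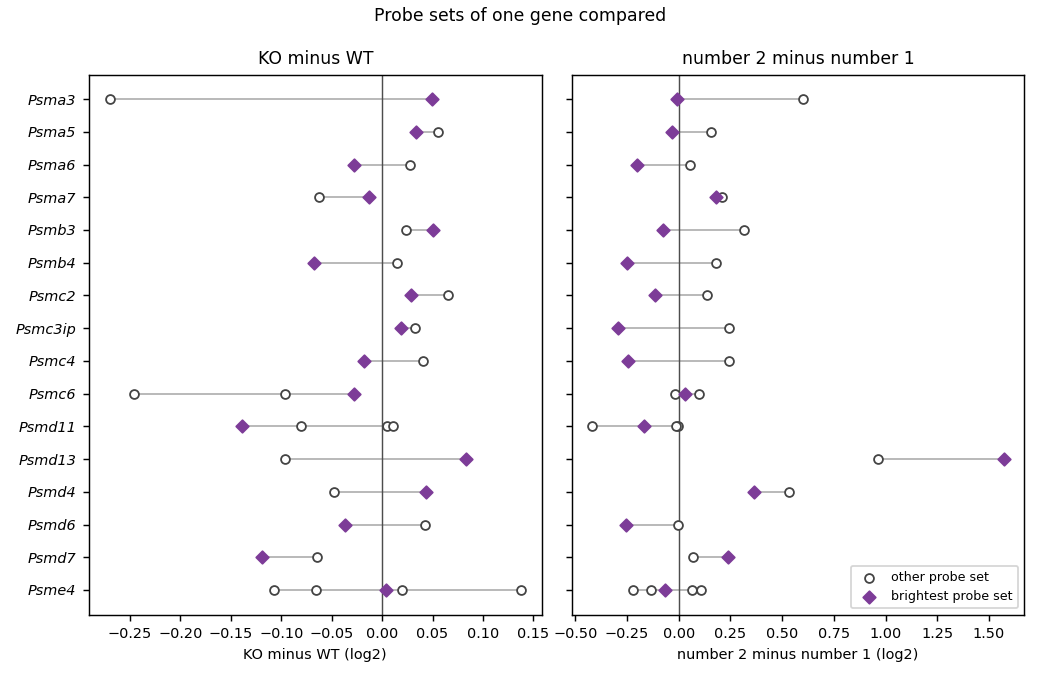
KO minus WT difference (left) and difference between the arrays numbered 2 and 1 (right), both log2, for the brightest probe set (diamonds) and the other probe sets above the median gene (circles) of 16 genes. Psmb4 and Psmc4 lie on opposite sides of 0 in the right panel, while both probe sets of Psmd13 lie above 0.9.

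Genes that work with the proteasome but are not subunits of the family were not called different. Of 50 genes listed, 40 were measured here. 0 passed an adjusted p of 0.05 with limma, and none reached 1.5-fold. 1 (Ngly1) had an unadjusted p under 0.05 with limma, against 1.88% of all genes. 19 had a higher and 21 a lower mean in KO cells, with a median of -0.0034. 3 of the 40 had both KO arrays above the WT arrays (8.20% of all genes) and 5 had both below (5.70% of all genes).

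Of the transcription factors of proteasome genes and their activators, 4 of 6 had a lower mean in KO cells, with a median difference of -0.14, and none passed the adjusted threshold. Nfe2l1, the factor that raises proteasome genes when the proteasome is inhibited, was at 9.28 and 9.32 in KO and at 9.47 and 9.40 in WT. The groups did not overlap, and the difference of -0.13 (SE 0.052) had a limma adjusted p of 1. Ngly1, the enzyme that activates the NFE2L1 protein by removing its sugars, was at 9.01 and 9.00 in KO and at 8.88 and 8.84 in WT. Its difference was 0.15 with an SE of 0.041 (limma unadjusted p = 0.035, adjusted p = 1). The small MAF partner Maff was at 9.74 and 9.41 in KO and at 9.95 and 9.89 in WT (difference -0.34, SE 0.14).

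**Figure D5:**
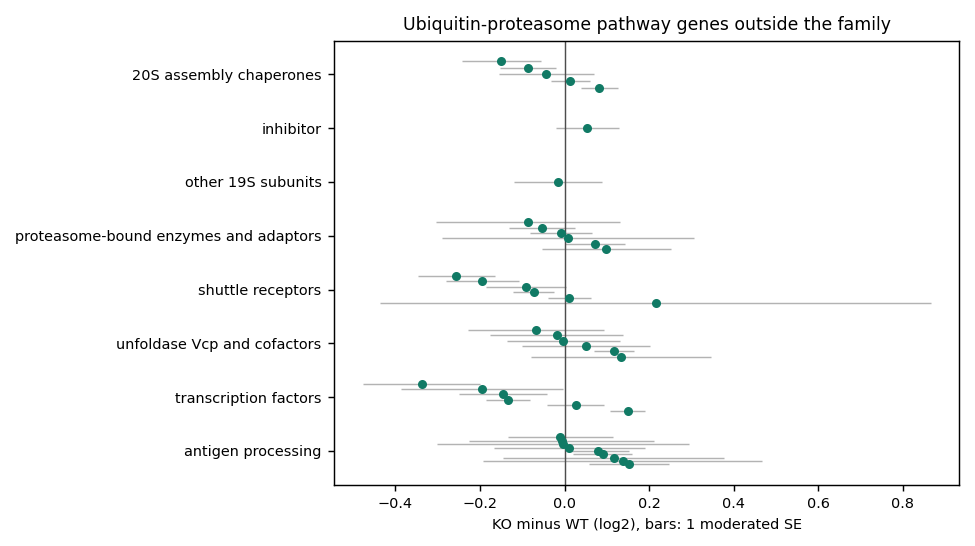
KO minus WT difference (log2, horizontal axis) of the 40 measured ubiquitin-proteasome pathway genes outside the family, by subgroup, with bars of 1 moderated SE (n = 2 arrays per group). Values run from -0.34 for Maff to 0.22 for Rad23b, whose bar is the widest.

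The remaining subgroups held small differences of either sign. Of the 6 shuttle receptors, which deliver ubiquitin-tagged proteins, 4 had a lower and 2 a higher mean in KO cells, with a median difference of -0.082. 3 had both KO arrays below both WT arrays (5.70% of all genes), and none passed the adjusted threshold. Zfand2a was at 9.04 and 8.85 in KO and at 9.24 and 9.16 in WT (difference -0.26, SE 0.091). Rad23b resembled Psmd13 in its dependence on the number. It was at 9.98 and 10.82 in KO and at 9.50 and 10.88 in WT, and was seventeenth of all genes in the difference toward number 2. Among 20S assembly chaperones, Psmg3 had the smallest p, at 9.21 and 9.17 in KO and 9.12 and 9.10 in WT (difference 0.083, SE 0.043). Faf1, a cofactor of the unfoldase VCP, differed by 0.12 (SE 0.047), the deubiquitinase Uchl5 by 0.072 (SE 0.070), the inhibitor Psmf1 by 0.054 (SE 0.075) and the small lid subunit Sem1 by -0.016 (SE 0.10). Of the antigen processing genes that share interferon control with Psmb8, the class I gene H2-K1 differed by 0.15 (SE 0.095). The peptide transporter gene Tap1, the neighbour of Psmb9, was at 8.28 and 8.43 in KO and at 8.28 on both WT arrays. All 9 antigen processing genes overlapped between the groups.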

How the data were processed

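Gene expression was measured on 4 Affymetrix mouse arrays of hair follicle stem cells, 2 KO and 2 WT. The values used are log2 expression levels as deposited; the submitters' processing notes name RMA, with no version. RMA sets all arrays to 1 distribution, so a shift of all genes cannot be seen. The number of arrays limits the precision.

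Groups and numbers came from the sample titles. Genes were named from GEO's platform annotation. 34945 of 45101 probe sets had 1 symbol, 932 had several and 64 were controls. For every one of the 18193 genes the probe set of highest mean was taken. All 44 members matched the RefSeq table (GRCm38.p6) by gene ID. The KO minus WT difference was fitted by limma 3.58.1 under R 4.3.3 (lmFit, eBayes, two-sided, no covariate, no filter). P-values were adjusted by Benjamini and Hochberg across all genes, at a threshold of 0.05. The fit was tested on simulated data. Promoter matches were sought on both strands. Values equal within 1e-06 counted as tied.

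Members, roles and lists were chosen with earlier results of these data known. Values on every array are given for the catalytic, immunoproteasome and activator subunits and, in each class, the 3 genes of smallest p and the gene of largest difference. Others, Psmc4, Psmc5, Psmd4, Psmd6, Psmd13, Psmd14, Maff, Rad23b, Tap1, Nfe2l1 and the neighbours of Psmd13, were chosen after their values were seen. Promoters and the microRNA are RefSeq sequences, and motifs and printed promoters were chosen after the values were seen. Figures were drawn with matplotlib 3.10.9. Alternatives were quantile normalization again, centring on the median, leaving out dim genes, averaging probe sets, every probe set alone, a replicate block, eBayes with a trend or robust, the unadjusted threshold and leaving out each array.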

Additional observations from a re-analysis of the deposited data

How the results depend on the processing

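0 of the 44 proteasome genes passed an adjusted p of 0.05 under any of the 11 refits, and the lowest adjusted p of a named member was 0.38. At an unadjusted p under 0.05 there was 1 member (Psmb8) and 342 genes in all. The 2 calls over all genes became 3 with quantile normalization again and 3 with centring on the median. They stayed at 2 with a trend or robust eBayes. They became 1 with the filter on dim genes, 0 with the mean of probe sets and 0 with the replicate block. The difference of Psmb8 ran from 0.10 with the mean of probe sets to 0.27 without WT 2. Its unadjusted p was above 0.05 in 8 of the refits that held it and below only without WT 1 (0.035) or WT 2 (0.013). The filter removed it with the other immunoproteasome genes, so no median could be had for that class.

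Without single arrays, class medians ran from -0.080 to 0.038 for the beta ring, -0.049 to 0.090 for the immunoproteasome, -0.13 to 0.022 for the lid and 0 to 0.086 for the activators. Of 303 values of 28 named members under these refits, 31 changed sign and 3 were 0, none of them a called value, and 10 of the 31 moved by over 1 SE. Same-numbered arrays deviated together (r = 0.56 across genes), but with 2 pairs and no label this does not establish pairing. With the replicate block 879 genes had an unadjusted p under 0.05, against 342 without it, and none was a member (Psmb8 unadjusted p = 0.057).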
